A study of Mus musculus with 714 samples.

Results

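Prss28 and Prss29 are neighbouring serine protease genes of the mouse, taken by name as 2 of the 12479 gene rows of a single-cell count table of the uterine epithelium. The cells came from ICR mice and had been sorted for CD326, the surface protein EpCAM of epithelial cells. They fall into 5 groups by postnatal day (pnd), with 24.2% of the cells at pnd0, 37.4% at pnd7, 24.2% at pnd14, 56 cells or 7.84% at pnd28 and 45 cells or 6.30% at pnd56. No treatment and no engineered allele is given for any group, and neither animals, litters nor stages of the oestrous cycle are named, so each age stands as 1 sample and no test was made between ages. The summed counts per age ranged between 81894 at pnd56 and 732957 at pnd7. All intervals are exact 95% intervals of counting error only.

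Prss28 and Prss29 encode the implantation serine proteinases ISP1 and ISP2. Both are secreted, trypsin-like enzymes of the tryptase group. In the mouse they are known from the glands of the uterus, where progesterone raises them around implantation, and they have been linked to the lysis of the embryo's coat and to the start of implantation. Uterine glands bud from the luminal epithelium in the first weeks after birth.

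The genes lie next to each other on chromosome 17. In RefSeq's gene order on GRCm38.p6 the genes around them include, in this order, Prss34, Prss28, Prss29, Tpsb2, Tpsg1 and Cacna1h. The build named for the counts is mm9, so this order serves for names and neighbours only. The promoters of both genes are shown because both genes had their highest level at pnd28. Each is a window of 300 bases from RefSeq on GRCm38.p6, with 250 bases before the start of the gene and 50 from it onward, on the plus strand, at chr17:25308396-25308695 for Prss28 and chr17:25318404-25318703 for Prss29. Capitals mark runs of at least 12 bases that both windows hold.
Prss28: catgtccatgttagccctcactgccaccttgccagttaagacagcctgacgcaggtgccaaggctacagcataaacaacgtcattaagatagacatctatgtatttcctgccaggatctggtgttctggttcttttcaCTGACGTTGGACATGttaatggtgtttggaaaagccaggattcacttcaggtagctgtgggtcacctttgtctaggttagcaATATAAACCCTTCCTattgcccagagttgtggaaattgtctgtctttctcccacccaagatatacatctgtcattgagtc
Prss29: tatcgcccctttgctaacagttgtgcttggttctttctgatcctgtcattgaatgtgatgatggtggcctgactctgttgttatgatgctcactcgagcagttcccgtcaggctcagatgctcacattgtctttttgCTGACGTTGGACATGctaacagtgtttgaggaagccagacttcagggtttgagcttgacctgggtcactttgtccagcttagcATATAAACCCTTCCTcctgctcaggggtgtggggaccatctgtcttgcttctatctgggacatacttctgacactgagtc

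Aligned end to end, the windows had an identity of 63.4%. By the number of shared stretches of 10 bases, Prss29 came first of 32850 other promoters in likeness to Prss28, with 13 shared stretches against at most 8 in any other. The promoters of the locus neighbours Prss34, Prss27 and Tpsg1 had identities of 48.9%, 48% and 47.5%. Both runs in capitals are 15 bases long and lie at nearly the same places. The run CTGACGTTGGACATG ended at base −98 in Prss28 and −99 in Prss29, counted from the start of the gene, and ATATAAACCCTTCCT began at base −30 in both. Of all 32851 promoters of the table, these 2 alone held either run, on either strand.

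The second run holds the TATA box letters TATAAA, from base −29 in both genes. These letters occur, on either strand, in 13.6% of all promoters. The letters TGACG, the core letters of cAMP response elements, lie inside the first run and occurred in 20.8% of all promoters. GGTCA, letters of the oestrogen response element, began at base −53 in Prss28 and at −51 in Prss29, with a further match on the other strand from −58 in Prss29, and it occurred in 40.5% of promoters. TGTTCT, letters of the progesterone response element, was found once in the Prss28 window and not in the Prss29 window, against 19% of promoters. TGTTTAC, letters bound by FOXA factors, was in neither window and in 3.65% of promoters. A match of letters is a description of the sequence and shows no binding.

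The transcripts of the 2 genes were compared because near-identical copies could share reads. The longest identical run of the main transcripts, of 1190 bases for Prss28 and 1181 for Prss29 in GENCODE M21, was 27 bases, and no stretch of 30 bases was shared. In the last 300 bases, where the 3' end reads of CEL-seq fall, their identity was 47.9% and the longest identical run was 10 bases. The only other gene that shared a stretch of 30 bases with either was AC122454.1, an annotated gene with no name.

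Over the ages, both proteases were near absent except at pnd28. Prss29 had 1 count at pnd0, 15 at pnd7, 1 at pnd14, 1144 at pnd28 and none at pnd56. In counts per 1000000 counts of the age (CPM), this was 1.72 [0.0435, 9.56] at pnd0, 20.5 [11.5, 33.8] at pnd7, 2.82 [0.0715, 15.7] at pnd14, 11886 [11207, 12595] at pnd28 and 0 [0, 45] at pnd56. Prss28 was counted at 2 ages only, with 6.82 CPM [2.21, 15.9] at pnd7, from 5 counts, and 5787 CPM [5316, 6288] at pnd28. Its 0 counts at pnd0, pnd14 and pnd56 had exact upper limits of 6.33, 10.4 and 45 CPM. A floor of 3 counts stands at 5.15, 8.47 and 36.6 CPM at these ages. In a summed level, fewer cells with a transcript and less of it per cell cannot be told apart. In order of level pnd28 stood first for both genes. For Prss29 pnd7 came next, its interval above that of pnd0 but overlapping that of pnd14. The upper bound at pnd56 lies above the values of the 3 youngest ages, so the place of pnd56 in the order is not resolved. At pnd28 Prss29 was the row with the most counts of all, and Prss28 ranked 17 by counts, but without the 2 fullest cells, described further on, they ranked 26 and 76.

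**Figure D1:**
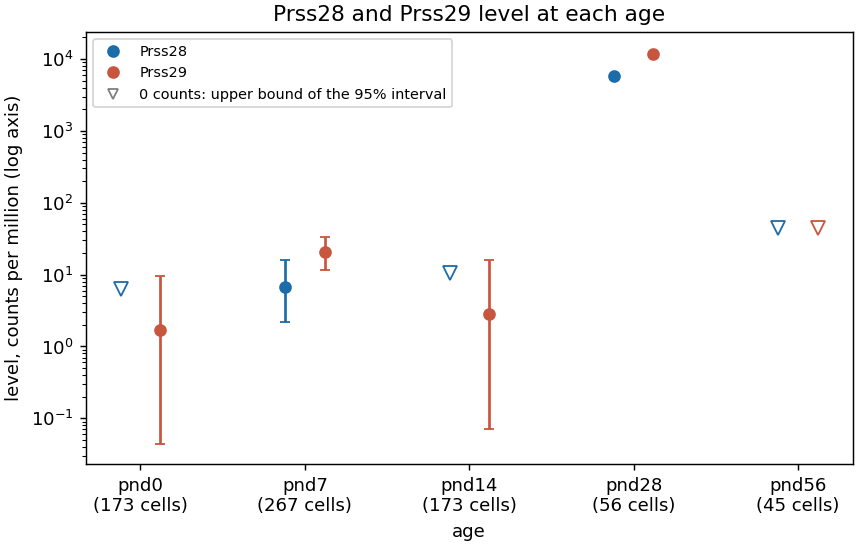
Level of Prss28 and Prss29 in CPM (log axis) at the 5 ages, each age 1 sample, with exact 95% Poisson intervals and open triangles for the upper bound where no count was found. At pnd28 Prss28 stands at 5787 CPM and Prss29 at 11886 CPM. No measured level of another age passes 20.5 CPM, though the upper bound at pnd56 is 45 CPM for both genes.

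Set beside pnd14, Prss29 at pnd28 had 1144 counts against 1, a log2 ratio of 12.04 [9.56, 17.34]. Prss28 had 5787 CPM at pnd28 against 0 counts at pnd14. With a floor of 3 counts over the age in place of the 0, its log2 ratio was 9.42. The lower end of its exact interval was 9.11. Of 3785 genes with at least 20 counts over both ages, 11.9% were at least 2-fold higher at pnd28, and these were the first and the second by ratio, beside a median log2 ratio of −0.23 over all. At pnd56 Prss29 had 0 counts against 1144 at pnd28, at least 324-fold lower by the same floor. Prss28 had 0 counts against 5787 CPM, a log2 ratio of −7.30 or less. Of 1797 genes, 16.5% were at least 2-fold lower at pnd56, and these 2 had the lowest ratios of all, beside a median log2 ratio of 0.06. In both comparisons the pair passed the minimum of 20 counts through pnd28 alone, so these places describe the rows and test nothing. Without the 2 cells described next, the log2 ratio of pnd56 over pnd28 with the floor was −6.63 for Prss29 and −5.37 for Prss28. With these cells it was −8.34 for Prss29. The log2 ratio of pnd28 over pnd14 without them was 10.33 for Prss29 and, with the floor, 7.48 for Prss28. All pnd28 cells belong to 1 run of 96 title numbers, and so do all pnd56 cells, so age and run cannot be told apart.

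The pnd7 counts of both genes came from 1 of the 3 runs of that age. In this run (title numbers of run 5) 9 of 88 cells, 10.2% [4.78, 18.5], held 20 counts, 15 of Prss29 and 5 of Prss28. The cells of runs 6 and 10 held none, with an exact upper limit of 2.04% for the share of cells with a count. A floor of 3 counts stands at 6.13 CPM in these cells, beside 82.1 CPM for both genes in run 5. The fullest of the 9 cells had 6 counts of Prss29 and 2 of Prss28, the next 3 and 1, and a further cell had 2 of Prss28 alone. The other 6 cells had 1 count of Prss29 each. The level at pnd7 is thus a level of 1 run, and at pnd0 and pnd14 it is a single count in a single cell.

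At pnd28 the counts were very unevenly spread over the cells. One cell held 670 counts of Prss29, and this gene made up 19.7% and Prss28 11.4% of its 3407 counts. In a second cell Prss29 made up 6.84% and Prss28, with 32 counts, 1.51% of 2120 counts. No other cell had more than 23 counts of Prss29 or 11 of Prss28. Together these 2 cells held 71.2% of the pnd28 counts of Prss29 and 75.4% of those of Prss28. Without them, the level of the remaining 54 cells was 3627 CPM [3245, 4040] for Prss29 and 1510 CPM [1268, 1785] for Prss28, still far above every other age.

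The other 54 cells had low counts of both genes. Prss29 ran from 0 to 23 with a median of 5 and quartiles of 3 and 9, and Prss28 from 0 to 11 with a median of 1 and quartiles of 0 and 4.75. The variance over cells was 4.39 times the mean for Prss29 and 4.28 times for Prss28. Over all 56 cells, 34 had both genes, 18 had Prss29 alone, 1 had Prss28 alone and 3 had neither. At least 1 count was present in 92.9% [82.7, 98] of the cells for Prss29 and in 62.5% [48.5, 75.1] for Prss28. With each cell thinned to 1000 counts, these shares were 89% and 55.8% of the 52 cells deep enough. By the number of cells, Prss29 ranked 24 of all rows.

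**Figure D2:**
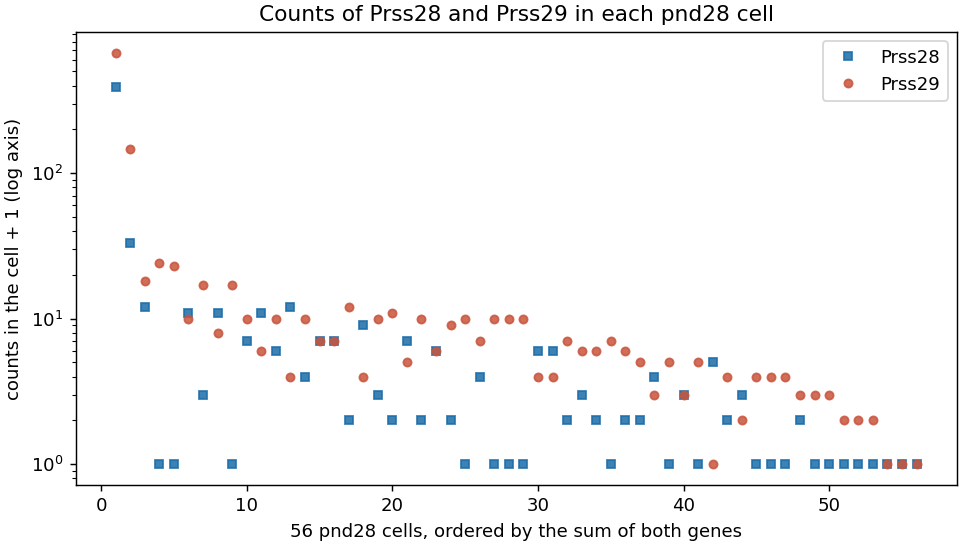
Counts of Prss28 and Prss29 plus 1 (log axis) in each of the 56 pnd28 cells, ordered by the sum of both genes. The first 2 cells stand apart with Prss29 at 670 counts in the first, and no cell after them passes 23.

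Cells with muscle or collagen counts also held counts of the proteases. Cells with at least 5 counts of smooth muscle markers or of the collagen genes Col1a1, Col1a2 and Col3a1, which mark cells outside the epithelium, were 9 at pnd28, with a median depth of 1788 counts. All 9 had Prss29, at 3 to 22 counts and 4989 CPM [3985, 6170], and 3 had Prss28, at 1291 CPM [809, 1955]. The other 45 low cells, with a median depth of 1529 counts, had Prss29 in 41 cells at 3311 CPM [2909, 3754] and Prss28 in 30 cells at 1561 CPM [1289, 1873]. The summed level of Prss29 was thus higher in the muscle or collagen cells, with intervals that do not overlap. These intervals cover counting error only and not the spread between cells. Whether a low count shows expression by the cell itself cannot be told from these counts. Where these counts come from was not tested. Prss28 was counted in a smaller share of these cells, at a level whose interval overlaps that of the other 45. These 9 cells are not free of epithelial RNA, since Krt18 was counted in 6 and Epcam in 3 of them, against 36 and 13 of the other 45. Whether these 9 are cells outside the epithelium can therefore not be told from these counts.

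In the 54 cells the counts hardly followed the depth of the cell. Spearman's rho with the total of all other genes was 0.09 for Prss29 and 0.06 for Prss28, against 0.37 for Krt18, a keratin of simple epithelia. These are descriptions over cells of 1 run of title numbers and carry no p. Only Hba-a1, Hba-a2 and Hbq1b, haemoglobin genes at pnd0, also had a cell of at least 200 counts that held at least 30% of its run. For Hba-a1 33 of the 87 other cells of that run had a count, against 1 of 85 cells of the other pnd0 run. For Hbq1b, which also had a cell of over 200 counts, 1 of these 87 other cells had a count, and that cell held 359 counts. For Prss29 51 of the 55 other cells of the run had a count. Whether RNA or reads of the fullest cells reached other cells of the run was not tested.

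The proportion of the 2 proteases differed between cells by more than counting error. Prss28 made up 36.7% [33.8, 39.7] of the pair's 1058 counts in the largest cell, 18.1% [12.7, 24.6] in the second and 29.4% [25.3, 33.8] in the other 54 cells together. The intervals of the largest and the second cell do not overlap. Of the 54, 21 cells had at least 10 counts of the pair. In 14 of these the interval held the summed share of 29.4%, in 4 it lay above and in 3 below. The 3 below had 23, 22 and 16 counts of Prss29 and none of Prss28, while the highest share was 78.6% [49.2, 95.3], from 11 counts of Prss28 and 3 of Prss29. Copies of 1 molecule, which may remain in the counts, are not covered by these intervals. At pnd7 the share was 25% [8.66, 49.1] of 20 counts, an interval wide enough to hold all 3 pnd28 values.

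**Figure D3:**
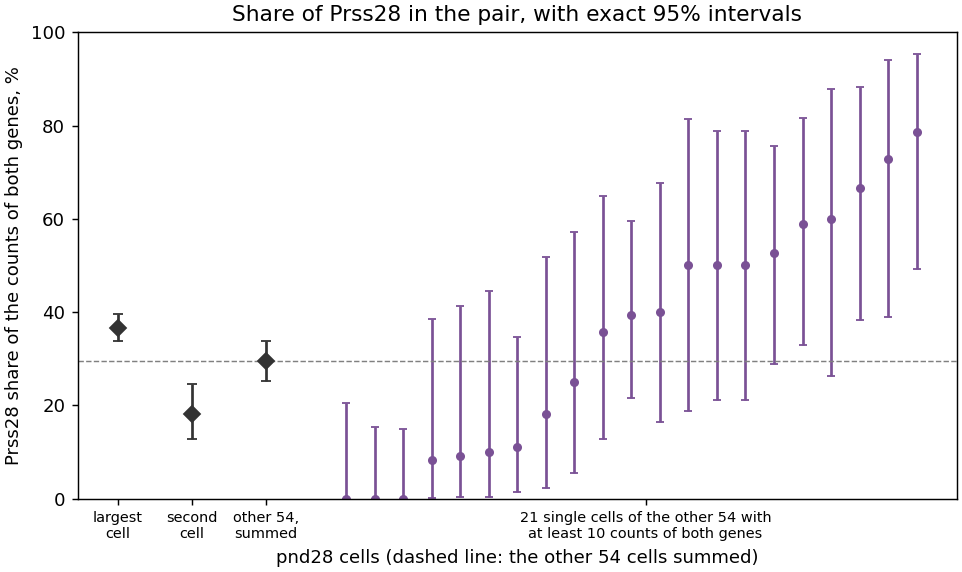
Prss28 as a percentage of the counts of both genes, with exact 95% intervals, in the largest cell, the second cell and the other 54 pnd28 cells summed, and in 21 single cells of these 54. The largest cell stands at 36.7% and the second at 18.1%, and single low cells range between 0 and 78.6%.

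Over the 56 cells, Prss28 and Prss29 were only loosely tied to each other and to other genes. Between Prss28 and Prss29 rho was 0.25 over all cells and 0.16 over the 54, on CPM with both genes left out of the totals. Pearson's r on a log scale was higher, at 0.42 over all cells, 0.29 without the largest and 0.22 over the 54. Among the other genes with at least 50 counts at pnd28 in at least 10 cells, the highest rho with the sum of both proteases was 0.30, for Mrpl30, a mitochondrial ribosomal protein. The range went down to −0.47, with a median of −0.03. After Mrpl30 came Gps2, Cd63, Prelid1, Gsta4, Kank3, Atp5b, Ap2m1, Mogs and H2-Ab1, between 0.25 and 0.18. Of these 10 genes, 4 stayed among the first 10 by Pearson's r on a log scale, and 3 each for Prss29 alone and Prss28 alone. Values this low over sparse counts name no gene that goes with the proteases across the cells.

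The other transcripts of the largest cell show what it held beside the proteases. Of 32 other genes with at least 10 counts in it, the 10 with the largest share of their pnd28 counts there were Pigr, Mmp15, Smc1a, Clu, Pdia6, Ssr4, Tmem176a, Emb, Hspa5 and Slc5a11. Pigr, the receptor that carries immunoglobulin A across epithelia, had 18 counts in the largest cell, 3 in the second and 16 in the other 54 together. Clu, the secreted chaperone clusterin, had 54, 29 and 89 counts. Pdia6, Ssr4 and Hspa5 serve the folding and entry of secreted proteins in the endoplasmic reticulum, with 12, 16 and 30 counts in the largest cell. Tmem176a, a membrane protein gene, had 51 counts there and 14 in the second cell. That these genes are high in the largest cell follows from how they were chosen.

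The second cell entered that choice only as part of the pnd28 total, in which its counts lower a gene's share in the largest cell, and it had counts of 7 of the 10 genes. Relative to the 54 low cells, with both proteases left out of the totals, its interval lay above 1 for Clu at 15.1-fold [9.59, 23.2], Pigr at 8.71-fold [1.63, 30.4], Pdia6 at 5.36-fold [1.04, 17.5] and Tmem176a at 3.52-fold [1.88, 6.05]. None of the 10 lay below 1. Of all 32 genes, 9 lay above and 6 below in the second cell. These intervals cover neither the spread between cells nor copies of 1 molecule. Single cells of the 54 held up to 6 counts of Pigr, 4 of Pdia6 and 15 of Tmem176a, against 3, 3 and 14 in the second cell. For Clu the fullest of the 54 held 19 counts, against 29 in the second cell. Hspa5 had only 1 count in the second cell, and Mmp15, Emb and Slc5a11 had none. With the same totals, Clu stood at 22989 CPM in the largest cell, 14925 CPM in the second and 986 CPM in the other 54.

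**Figure D4:**
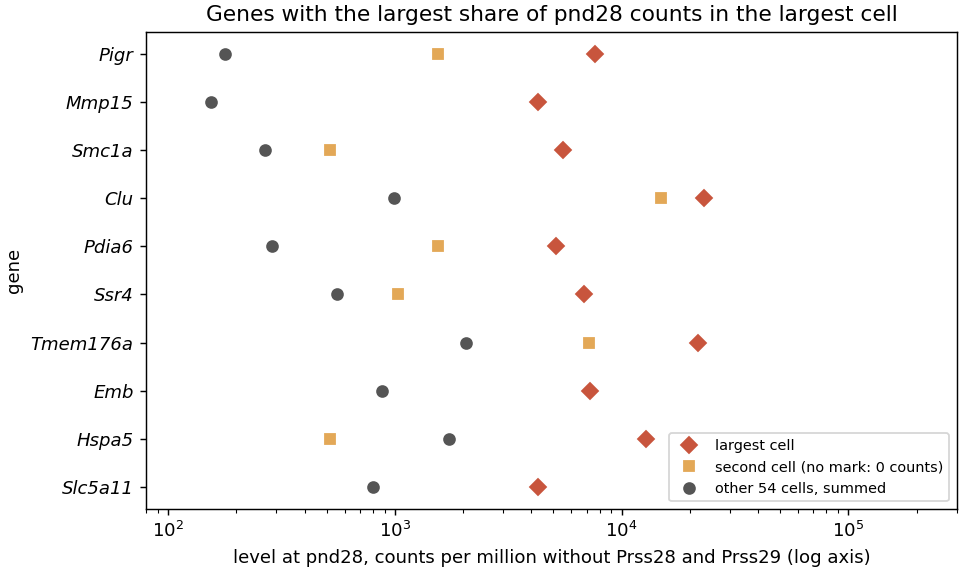
Level, in CPM with Prss28 and Prss29 left out (log axis), of the 10 genes chosen for their share in the largest pnd28 cell, in that cell, in the second cell and in the other 54 cells summed. Clu lies at 22989, 14925 and 986 CPM, and Mmp15, Emb and Slc5a11 have no count in the second cell.

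Known markers gave the 2 fullest cells little further identity. Of the 7 other gland markers with a row, namely Spink12, Cxcl15, Lif, Prlr, Sox17, Ttr and Aldh1a1, the largest cell had none, and the second had 3 counts of Ttr, the thyroxine carrier transthyretin, which were all the Ttr counts of pnd28. The gland regulator Foxa2 and Spink3 have no row here. Of 8 epithelial markers the largest cell had 4, with 9 counts of Cldn3, 4 of Krt18, 2 of Krt7 and 2 of Cldn7, and the second had 21 of Krt18 and 3 of Cdh1. Epcam was at 0 in both. Of 10 luminal markers the largest cell had Fxyd3 alone, with 12 counts, and the second had 6 of Fxyd3, 5 of Ltf and 2 of Sprr2f, but the row of Lgi4, which overlaps Fxyd3 on the other strand, had the same count in all but 2 cells of the table, so the Fxyd3 counts are uncertain. The label of gland proteases therefore rests on what is known of the genes, and the marker rows measured here do not identify these cells as gland cells. The smooth muscle, immune and endothelial markers with a row were at 0 in both cells, and stroma markers had 1 count in each. A row exists for 4 of 8 smooth muscle, 5 of 8 immune, 4 of 5 endothelial and 7 of 8 stroma markers. Of 10 mast cell markers, relevant because tryptases are mast cell enzymes, only 4 have a row. Of these, Tpsb2 and Hdc were at 0 in all pnd28 cells. The largest cell had 1 count each of Kit and Gata2, and that of Kit was the only one at pnd28.

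Spink12, a Kazal-type protease inhibitor of the uterine glands, had most of its counts in cells with few protease counts. Of its 77 pnd28 counts, 46 lay in 1 cell with 9 Prss29 and 2 Prss28 counts, and 19 in a cell with 5 and 1. It had none in the 2 fullest protease cells. All 10 cells with Spink12 also had a count of a protease, as 53 of all 56 cells did. By age Spink12 did not follow the proteases, with 2332 CPM at pnd56 against 800 CPM at pnd28.

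Among the genes with at least 50 counts at pnd28, none had as large a part of its level at that age as the proteases. Of these 274 genes, Prss28 and Prss29 had 99.9% and 99.8% of their CPM, summed over the 5 ages, at pnd28. The filter used pnd28 counts, and the members were chosen with earlier results of these data known, so the place of the pair tests nothing. The next gene, Cd74, the MHC class II invariant chain, had 80.4%, followed by Mmp2, a gelatinase, at 78.7% and Dcn, a stromal proteoglycan, at 76.1%. Olfm1 at 75.3%, H2-Ab1 at 65.1%, Cldn10 at 57.3%, Slc5a11 at 57.2% and Cnn2 at 52.5% came after these. Cd74 had 4 counts in the largest protease cell and 2 in the second, and its own fullest cell held 94 of 371. Olfm1 had none in the largest cell and 3 in the second.

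The locus neighbours of the pair were almost silent. Of 11 proteases of the tryptase locus and its kin, 5 have a row. Beside the pair these are Prss27 and Tpsb2, each with 1 count, at pnd7, and Prss32, with 1 count at pnd56. None of the 3 was counted at pnd28.

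The list of other serine proteases held genes that were highest at pnd28 and genes that were highest at other ages. Of 34 listed genes 25 have a row, and 8 had at least 20 counts over pnd28 and pnd14. Among these, 2 were at least 2-fold higher at pnd28 and none lower, beside 11.9% higher and 23.2% lower of all genes. They were F3, tissue factor, which is a cofactor of a clotting protease and not a protease itself, at 270 CPM at pnd28 against 19.8 CPM at pnd14, and Tmprss13, a membrane-bound serine protease, at 135.1 against 22.6 CPM. At pnd56 F3 was at 61.1 CPM and Tmprss13 at 24.4 CPM, from 2 counts, so both were highest at pnd28, as the pair was. Of 4 genes measured over pnd56 and pnd28, 2 were at least 2-fold higher at pnd56 and 2 lower, beside 14.8% higher and 16.5% lower of all genes. Klk1, a kallikrein, was higher at the adult age, with 781.5 CPM at pnd56 against 83.1 CPM at pnd28. Plat, the tissue plasminogen activator, was at 122.1 CPM at pnd56 against 654.6 CPM at pnd28. Prss12 had 6 counts, all at pnd28, of which 2 lay in the second protease cell.

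Among serine protease inhibitors, 5 of 28 listed genes had at least 20 counts over pnd28 and pnd14. Of these 2 were at least 2-fold higher at pnd28 and 1 lower, beside 11.9% and 23.2% of all genes. The higher ones were Spink12 and Serpinb8, an intracellular serpin, but Serpinb8 had 8 counts at pnd28 against 12 at pnd14, and the interval of its log2 ratio, −0.20 to 2.71, holds no change. Wfdc18, a whey acidic protein-type gene, was lower, at 93.5 CPM at pnd28 against 392.6 CPM at pnd14. Spint1, an inhibitor of membrane serine proteases, had a log2 ratio of −0.15 for pnd28 over pnd14, and Wfdc2, with a similar whey acidic protein fold, was at 8759 CPM at pnd28 against 6296 CPM at pnd14. At pnd56, 2 of 4 measured inhibitors were at least 2-fold higher than at pnd28 and none lower, beside 14.8% higher of all genes.

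Progesterone-responsive genes were found on both sides. Of 8 measured members, 3 were at least 2-fold higher at pnd28 than at pnd14 and 5 lower, beside 11.9% higher and 23.2% lower of all genes. Cyp26a1, which breaks down retinoic acid, was at 374 CPM at pnd28 against 36.7 CPM at pnd14 and had no count at pnd56, with 36 counts in 7 cells at pnd28, none of them a fullest protease cell. Sgk1, a kinase, was at 405.2 against 115.8 CPM and Muc1, a membrane mucin, at 592.2 against 192.1 CPM. Gata2, a transcription factor of the progesterone response, was at 93.5 CPM at pnd28 against 754 CPM at pnd14, and Irg1 at 10.4 against 118.6 CPM. Calb1 and Lrp2 had no count at pnd28, against 51 and 23 counts at pnd14, and Nr2f2 was at 176.6 against 505.6 CPM.

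Among the steroid receptors, Pgr was close to the detection floor in the pnd28 cells. Pgr, the progesterone receptor, had 1 count at pnd28, or 10.4 CPM, against 56.5 CPM at pnd14, and none in the 2 fullest protease cells. Esr1, oestrogen receptor alpha, was at 374 CPM at pnd28 against 468.9 CPM at pnd14, with 2 counts in the second protease cell. Gper1, a membrane oestrogen receptor, was at 62.3 CPM at pnd28 against 169.5 CPM at pnd14. Among 9 measured factors known in gland formation, 1 was at least 2-fold higher at pnd28, Wnt7a at 176.6 against 76.3 CPM, and 2 were lower, which is close to the 11.9% higher and 23.2% lower of all genes. The lower ones were Fgfr2, with no count against 92 at pnd14, and Wnt11, at 62.3 against 234.4 CPM. Sox17, needed for glands in the mouse, was at 31.2 CPM at pnd28 against 62.1 CPM at pnd14, from 3 counts.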

How the data were processed

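Single CD326+ cells had been prepared as CEL-seq libraries, which read the 3' end of each transcript, per the labels' protocols. The authors deposited raw counts per gene and cell in 1 table, with 714 of 960 sorted cells, of which 173 are from pnd0, 267 from pnd7, 173 from pnd14, 56 from pnd28 and 45 from pnd56. Per the submitters' processing notes, TopHat, Cuffnorm and mm9 were used, with no role or version given. Collapse of molecular identifiers and the filter on cells are not given in the sources used here, and doublets were not called. Values were taken as counts because they are whole numbers with a different total in each cell. Age totals ranged between 81894 counts at pnd56 and 732957 at pnd7, and median depth per cell between 1600 and 3037 counts.

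Counts were summed per age and divided by the sum of all genes (CPM). Poisson, conditional binomial and Clopper-Pearson intervals at 95% came from SciPy 1.17.1 in Python 3.11.15. A count of 0 was set at a floor of 3 counts over the age. Ratios used genes with at least 20 counts over both ages. For pnd28 over pnd14, 449 genes were at least 2-fold higher, against 825 at a minimum of 10 counts and 179 at 50, and 878 were lower, against 362 at 50. For pnd56 over pnd28, 266 were higher, against 524 and 101, and 297 lower, against 695 and 70. Scripts were tested on simulated data. Blocks of 96 title numbers served as runs, and the labels do not say what they are.

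The members and lists were chosen with earlier results of these data known. Named genes are the members, the fixed lists and markers, and the first 10 by likeness over pnd28 cells, by share of CPM at pnd28 and by share in the largest pnd28 cell. The limit of 100 Prss29 counts for the 2 fullest cells, the limit of 5 muscle or collagen counts, the haemoglobin comparison, and the words on AC122454.1 came after seeing the data. Promoters are from RefSeq on GRCm38.p6, matched by symbol for both genes, and were aligned with Biopython 1.88. No protein sequence was used here. Some genes of the lists are not reported here.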

Additional observations from a re-analysis of the deposited data

How the results depend on the processing

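No paired analysis was possible because each age is 1 sample and cell numbers pair nothing. Under the alternatives, 93 values were labelled the same as the main value and 33 moved. Where the main value has a 2-sided interval, the same means inside that interval, which can be wide. For Prss29 at pnd28 over pnd14, log2 10.33 without both fullest cells thus counted as the same as 12.04. So did 9.76 without run 3, where the floor of 3 counts stood for 0. The 93 include levels and shares of ages with 0 counts, which are 0 under every alternative. A change of direction was judged for the log2 ratios only, and none of them changed direction. The pnd28 levels rest on few cells. Prss29 at pnd28 was 5106 CPM without the largest cell, 3627 without both fullest cells, 8861 over cells of at least 1000 counts at equal depth, 8498 as a mean over cells and 13369 without muscle or collagen cells. For Prss28 these were 1820, 1510, 3980, 3890 and 6754 CPM. The log2 ratio of Prss28 for pnd28 over pnd14, with the floor, was 7.75 without the largest cell and 7.48 without both. It was 8.72 without run 3 and 8.60 without run 7. For pnd56 over pnd28 the log2 ratios with the floor, without the largest cell and without both, were −7.12 and −6.63 for Prss29. For Prss28 they were −5.63 and −5.37. The Prss28 share of the pair was 26.3% without the largest cell and 29.4% without both. Of the genes measured, 15.5% at a minimum of 10 counts and 9.24% at 50 were at least 2-fold higher at pnd28 than at pnd14, and 18.7% at 50 were lower. For pnd56 against pnd28, 16.4% at 10 and 15.5% at 50 were higher, and 21.8% and 10.8% lower. Of the first 10 genes by likeness, 4 stayed with Pearson's r, 5 without the largest cell, 5 without both, 3 for Prss29 alone, 3 for Prss28 alone and 1 at a minimum of 20 counts. The alternatives without both fullest cells and without muscle or collagen cells were chosen after seeing the data. The floor of 3 counts stands at 36.6 CPM at pnd56 and 31.2 CPM at pnd28. A count of 0 at pnd56 has an exact upper limit of 45 CPM.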
